A study of Mus musculus with 6 samples.

Results

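The 37 genes described here encode the transporters and enzymes that carry glucose to lactate, the hypoxia-inducible factors with their oxygen-sensing regulators, and a set of genes that hypoxia induces. They were taken by symbol from a count table of 51912 gene IDs, through the GENCODE M21 annotation, and all 37 were found and passed the filter on low counts. The table holds 6 RNA-seq libraries of primary osteoblasts, the bone-forming cells, from the calvaria (skull cap) of 1 d old C57BL/6J mouse pups. All cells carried Mark3 flox/flox alleles. In the Mark3-KO group (genotype Mark3-/-, 3 libraries) they were exposed for 24 h to adenovirus carrying Cre, which cuts out the flanked part of Mark3, a protein kinase gene. In the WT group (genotype wild-type, 3 libraries) they were exposed for 24 h to adenovirus carrying GFP. Virus cargo and genotype therefore changed together and cannot be told apart.

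Glycolysis splits glucose into pyruvate and, in cells that ferment, into lactate, and osteoblasts are known to take up much glucose and to release lactate in the presence of oxygen. Hypoxia-inducible factors are transcription factors whose alpha subunits are hydroxylated by EGLN enzymes when oxygen is present, bound by the VHL protein and degraded. When oxygen is low they persist and switch on glycolytic genes, Vegfa and others, and in bone they are known for coupling vessel growth to bone formation.

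Promoter sequence was not used directly to choose the genes. The list does hold genes that hypoxia induces and glycolytic genes that hypoxia-inducible factors switch on. Its share of matches below is therefore not independent of how it was drawn up. RefSeq windows of 300 bases (250 before to 50 after a transcript start, build GRCm38.p6) were on hand for 34 of the 37 genes, 53 windows in all. The core of a hypoxia response element is ACGTG or GCGTG, which were searched on both strands. The longer CACGTG holds ACGTG on each strand and counts as 2 matches. One or the other core was present in 43 of the 53 windows (81.1%), against 43.8% of all 32851 windows in the table. Several windows of the same gene, some of them overlapping, were each counted. At least 1 match was found for 30 of the 34 genes, and the share by gene over all genes was not computed. ACGTG alone was in 50.9% of the members' windows and 19.6% of all windows. The members' windows had a median GC content of 62.3%, against 52.7% for all windows, and no comparison at matched GC content was made. Windows are printed for the genes that the comparisons turn on, with matches in capitals: the adenylate kinase gene Ak4 and the regulator gene Pfkfb3, which had the smallest p-values, and Pgk1 and Hif1a, whose mean levels were about equal and higher in Mark3-KO. Where a gene has several windows, the one with most matches is given.
Ak4, chr4:101419453-101419752, plus strand: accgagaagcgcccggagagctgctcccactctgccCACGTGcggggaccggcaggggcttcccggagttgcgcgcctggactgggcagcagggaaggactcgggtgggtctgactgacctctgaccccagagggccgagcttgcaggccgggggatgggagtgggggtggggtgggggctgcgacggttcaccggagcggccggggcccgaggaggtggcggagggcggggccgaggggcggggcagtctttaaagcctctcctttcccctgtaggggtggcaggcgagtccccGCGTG
Pfkfb3, chr2:11502041-11502340, minus strand: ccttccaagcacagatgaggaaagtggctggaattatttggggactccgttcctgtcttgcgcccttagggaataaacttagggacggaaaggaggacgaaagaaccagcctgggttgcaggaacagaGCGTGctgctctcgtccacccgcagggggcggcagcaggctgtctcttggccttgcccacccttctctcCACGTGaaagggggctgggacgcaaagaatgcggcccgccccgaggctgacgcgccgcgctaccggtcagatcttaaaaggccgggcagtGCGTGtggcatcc
Pgk1, chrX:106186850-106187149, plus strand: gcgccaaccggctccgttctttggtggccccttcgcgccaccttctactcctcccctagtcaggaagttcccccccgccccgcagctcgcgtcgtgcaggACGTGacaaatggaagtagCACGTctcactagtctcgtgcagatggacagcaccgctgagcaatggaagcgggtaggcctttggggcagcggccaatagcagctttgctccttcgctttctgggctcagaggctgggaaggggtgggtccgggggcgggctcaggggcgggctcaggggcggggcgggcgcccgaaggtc
Hif1a, chr12:73907617-73907916, plus strand: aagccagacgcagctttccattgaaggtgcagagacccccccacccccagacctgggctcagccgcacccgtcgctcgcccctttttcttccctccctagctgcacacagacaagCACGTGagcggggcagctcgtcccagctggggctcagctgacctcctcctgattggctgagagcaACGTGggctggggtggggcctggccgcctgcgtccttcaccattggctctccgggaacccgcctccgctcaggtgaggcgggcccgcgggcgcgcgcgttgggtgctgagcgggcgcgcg
The printed windows hold 3 matches for Ak4, 4 for Pfkfb3, 2 for Pgk1 and 3 for Hif1a, so genes of unlike direction carried the same core letters. A match is a description of the letters and not a measured binding site.

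The 6 libraries held between 56925883 and 71445243 counts. Mark3 itself was at 47.5, 52.3 and 44.1 CPM (counts scaled to library size, with TMM factors) in the Mark3-KO libraries, against 113, 117 and 117 CPM in the WT libraries, a log2 fold change of -1.27 ± 0.10 (SE, edgeR adjusted p 0.0153), so the labels and the targeted gene went together. Libraries also differed by transcript GC content. Genes in the top decile of GC content had a median log2 ratio, relative to the 6-library mean, of -0.18, -0.58 and -0.80 in Mark3-KO and 0.96, 0.57 and 0.07 in WT. This gradient ran in the same direction as the groups, and its part in the results was not tested. Fold changes are therefore also given after a correction for GC content (a smooth curve of expression ratio against GC content, removed from each library). Such a correction also removes any difference of expression that happens to follow GC content. Of 10 osteoblast markers, Col1a1, Runx2 and Alpl among them, 8 had a mean of at least 1 CPM. Their summed level was 14588 to 21502 CPM in Mark3-KO and 21624 to 43166 CPM in WT. Markers of other cells summed to 228 to 275 CPM in Mark3-KO and 207 to 234 CPM in WT for macrophages (8 of 8 at 1 CPM or more), and 354 to 590 CPM against 677 to 1773 CPM for chondrocytes (5 of 6). Neural markers (2 of 6, Rbfox3 at 0) summed to 9.52 to 17.1 CPM in Mark3-KO and 20.2 to 38.1 CPM in WT, adipocyte markers (2 of 6) to 19.97 to 22.5 CPM and 15.1 to 19.9 CPM. Skeletal muscle markers (2 of 7) summed to 2.13 to 5.49 CPM in Mark3-KO and 7.76 to 14.9 CPM in WT, endothelial markers (3 of 6) to 4.26 to 4.58 CPM and 4.16 to 4.54 CPM, and red blood cell markers (0 of 6) to 0.664 to 0.878 CPM and 0.548 to 0.655 CPM. The part of these cells in the results was not tested. In bulk RNA, fewer cells of a type and less RNA per cell cannot be told apart.

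Of the 37 genes, Ak4 passed the test over all genes and fell in Mark3-KO, and none passed upward (quasi-likelihood test of edgeR, threshold 0.05 on the p adjusted over 19017 tested genes). That is 1 of 37, against 0.216% of all tested genes (0.168% lower and 0.0473% higher). At an unadjusted p below 0.05 there were 24 of the 37, 22 lower and 2 higher in Mark3-KO, against 45.7% of all tested genes (24.8% lower and 20.8% higher). At an adjusted p below 0.1 in edgeR there were 23, 21 lower and 2 higher, against 43.7% (24% lower and 19.7% higher). The adjusted values crowded just above the threshold: 14 of the 37, and 24.8% of all tested genes, had an adjusted p below 0.055. The groups did not overlap for 24 genes that were lower and 2 that were higher in Mark3-KO, against 27.5% and 25.8% of all tested genes. The median log2 fold change of the 37 (Mark3-KO over WT) was -0.60, against 0.02 over all tested genes, with 29 of the 37 below 0 against 48.9% of all tested genes. With the DESeq2 Wald test 19 of the 37 passed, 18 lower and 1 higher, against 36.2% of all tested genes (21.7% lower and 14.4% higher), and with limma-voom Ak4 alone passed, against 0.142% (0.105% lower and 0.0368% higher).

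**Figure D1:**
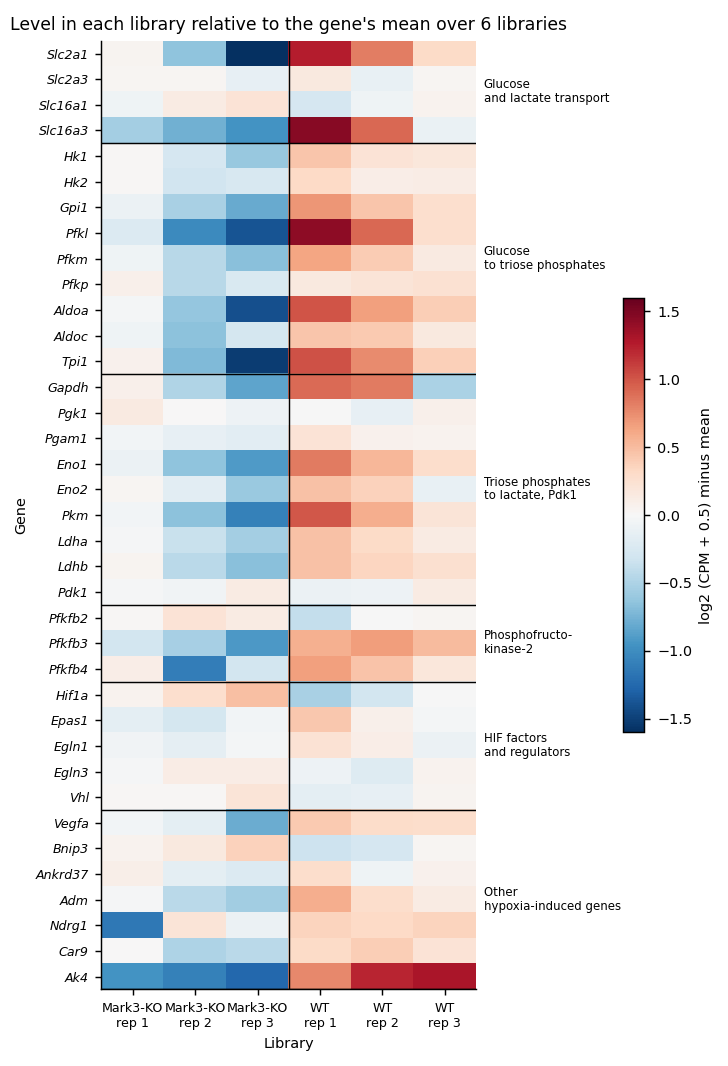
Heat map of the 37 genes (rows, grouped by role) in the 3 Mark3-KO libraries (left) and the 3 WT libraries (right), where colour is log2 of CPM plus 0.5, minus the gene's mean over the 6 libraries. Most enzyme genes are below their mean in Mark3-KO replicates 2 and 3 and above it in WT replicates 1 and 2, Ak4 is low in each Mark3-KO library, and Pgk1, Pdk1 and Slc2a3 are near their means throughout.

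Ak4 encodes an adenylate kinase of the mitochondrial matrix, which exchanges phosphate between adenine nucleotides and is known in human cell lines as a target of HIF. The gene (ENSMUSG00000028527) lies at chromosome 4, 101419277 to 101466995 on the plus strand (GRCm38), and its exons overlap no other gene in the table. It had 5.79, 5.26 and 4.58 CPM in the Mark3-KO libraries, against 20.2, 27.8 and 29.6 CPM in the WT libraries. The lowest WT library was several times above the highest Mark3-KO library, and the groups were far apart relative to their spread. Its mean was 5.21 ± 0.604 CPM in Mark3-KO and 25.8 ± 5.01 CPM in WT (mean ± SD, n = 3 each, as for all means given below), which left 20.2% of the WT level. This is a log2 fold change of -2.31 ± 0.19 (SE, edgeR adjusted p 0.0183). The GC content of its transcript is 49.5%, where the median of all tested genes lay close to 0, and after GC correction the log2 fold change was -2.25 (edgeR adjusted p 0.00756). With any library left out it stayed between -2.47 and -2.21. The call was lost on leaving out WT replicate 2 (edgeR adjusted p 0.128), Mark3-KO replicate 2 (0.142) or Mark3-KO replicate 3 (0.0932), or both WT replicate 1 and Mark3-KO replicate 3 (0.0564), and the edgeR alternatives ran from 0.00279 to 0.142. A near-identical pseudogene, Ak3l2-ps, was at 1.36 CPM in Mark3-KO and 1.87 CPM in WT, and adding its counts to Ak4 gave a log2 fold change of -2.08 (edgeR adjusted p 0.0219).

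Pfkfb3, Pfkfb2 and Pfkfb4 encode the bifunctional enzymes that make and break the sugar bisphosphate that activates phosphofructokinase, and Pfkfb3 has a kinase activity far above its phosphatase activity. Pfkfb3 (ENSMUSG00000026773, chromosome 2, 11471433 to 11554077 on the minus strand) had 16.9, 14.3 and 10.9 CPM in the Mark3-KO libraries, against 31.4, 33.6 and 29.8 CPM in the WT libraries. Each Mark3-KO library was well below each WT library, and the WT libraries were close to each other. Its mean was 14.01 ± 3.04 CPM in Mark3-KO and 31.6 ± 1.88 CPM in WT, a log2 fold change of -1.17 (SE 0.18). It missed the threshold narrowly in edgeR's test (adjusted p 0.0506) and passed it after GC correction (log2 fold change -1.06, adjusted p 0.0448). With any library left out its log2 fold change stayed between -1.33 and -1.02, and over all edgeR alternatives its adjusted p ran from 0.00399 to 0.290. Its transcript is at 50.2% GC. Pfkfb4 had 8.59, 3.403 and 6.37 CPM in the Mark3-KO libraries, against 12.8, 11.05 and 9.01 CPM in the WT libraries. The groups did not overlap, but the lowest library, Mark3-KO replicate 2, was far from the other Mark3-KO libraries. Mark3-KO over WT came to -0.84 ± 0.34 on the log2 scale (SE, edgeR adjusted p 0.1004), and -0.15 after GC correction. Pfkfb2 had 22.1, 25.5 and 23.9 CPM in the Mark3-KO libraries, against 16.7, 21.8 and 22.3 CPM in the WT libraries. The groups overlapped, and the log2 fold change of 0.24 (edgeR adjusted p 0.258) became -0.02 after GC correction.

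Ak4 and Pfkfb3 were also the only members for which the gap between the groups was wider than the spread within either. On the scale of log2 of CPM plus 0.5, the gap was 1.72 for Ak4, with at most 0.54 between libraries of a group, and 0.80 for Pfkfb3, with at most 0.62. Such a gap was found for 2 of 37 members and 3.8% of all tested genes (1.63% lower and 2.17% higher), and this measure was chosen after the values were seen. After GC correction the same pair passed edgeR's test, 2 of 37 against 0.379% of all tested genes (0.294% lower and 0.0841% higher).

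**Figure D2:**
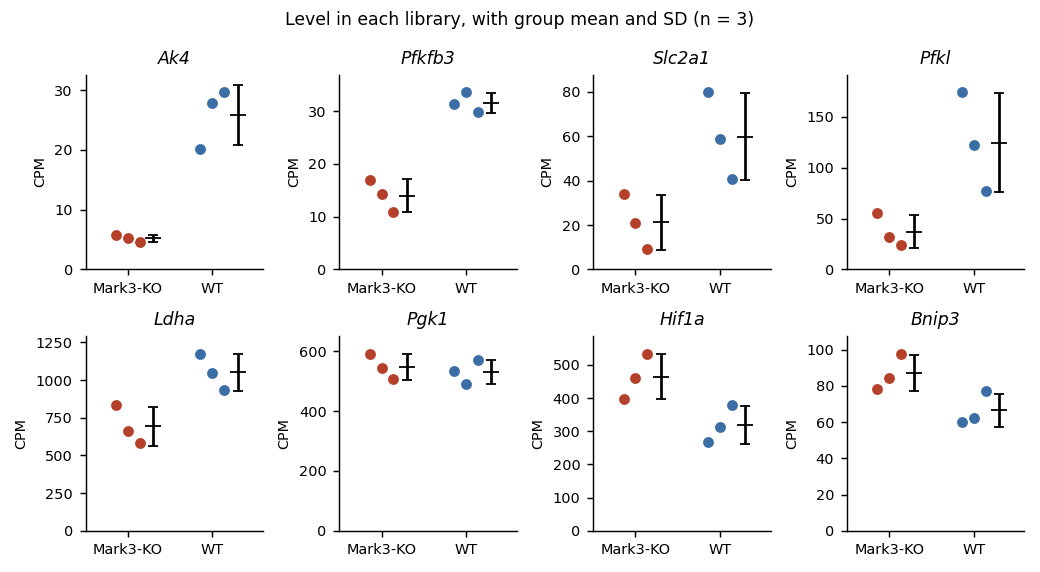
Level of 8 genes in CPM (vertical axis, from 0) in each Mark3-KO library (left) and each WT library (right), with the group mean and SD (n = 3). Ak4 and Pfkfb3 are split by a gap, Slc2a1, Pfkl and Ldha are lower in Mark3-KO with wide spreads, Pgk1 overlaps, and Hif1a and Bnip3 are higher in Mark3-KO.

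Transport into and out of the cell was measured by 4 genes, of which 0 passed edgeR's test. Slc2a1 encodes the main glucose importer of most cells, and had 33.9, 20.9 and 9.198 CPM in the Mark3-KO libraries, against 79.8, 58.7 and 40.9 CPM in the WT libraries. Every Mark3-KO library was below every WT library, but the values spread several-fold within the Mark3-KO group. On the log2 scale the difference was -1.48 ± 0.48 (SE, edgeR adjusted p 0.0615), and -0.94 after GC correction (adjusted p 0.159). Slc16a3, a lactate exporter known to be induced by hypoxia, had 8.403, 7.14 and 6.16 CPM in the Mark3-KO libraries, against 35.1, 24.1 and 11.5 CPM in the WT libraries. The Mark3-KO libraries were close together, while WT replicate 3 was well below the other WT libraries. This gave a log2 fold change of -1.70 ± 0.39 (SE, edgeR adjusted p 0.0506), and -0.67 after GC correction. Slc16a1, a monocarboxylate transporter that carries lactate in either direction, had 83.7, 95.96 and 102 CPM in the Mark3-KO libraries, against 72.3, 83.2 and 91.4 CPM in the WT libraries. The groups overlapped, and the log2 fold change changed sign with GC correction, at 0.19 (edgeR adjusted p 0.272) without it and -0.22 (adjusted p 0.0941) with it. Slc2a3, a high-affinity glucose importer, averaged 4.75 ± 0.346 CPM in Mark3-KO and 4.95 ± 0.511 CPM in WT, with overlap and a log2 fold change of -0.06, and -0.18 after GC correction.

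The 9 genes of the steps from glucose to triose phosphates were each lower in Mark3-KO with no overlap of the groups, and each stayed under 0.05 before adjustment in edgeR, but 0 of the 9 passed after it. Over all tested genes, 27.5% were lower without overlap and 24.8% lower at an unadjusted p below 0.05. After GC correction 7 of the 9 were lower and 1 higher without overlap (all tested genes 17% and 16.1%), and 5 were lower and 1 higher at an unadjusted p below 0.05 in edgeR (13.8% and 12.5%). Gpi1 encodes the isomerase that turns glucose phosphate into fructose phosphate. It had 219, 163 and 134 CPM in the Mark3-KO libraries, against 383, 319 and 282 CPM in the WT libraries. The fold change, as log2, amounted to -0.93 ± 0.21 (SE, edgeR adjusted p 0.0506), and -0.62 after GC correction (adjusted p 0.0941). Pfkl, the liver-type subunit of phosphofructokinase, the step that commits sugar to glycolysis, had 55.1, 31.5 and 24.3 CPM in the Mark3-KO libraries, against 174, 122 and 77.3 CPM in the WT libraries. Both groups were uneven, with the lowest and highest library of each far apart. Expressed as log2, the ratio was -1.75 ± 0.40 (SE, edgeR adjusted p 0.0506), and -0.75 after GC correction (adjusted p 0.0941). Pfkm, the muscle-type subunit, had 28, 21.6 and 18.3 CPM in the Mark3-KO libraries, against 45.7, 39.03 and 32.4 CPM in the WT libraries. The log2 fold change of -0.79 (SE 0.20, edgeR adjusted p 0.0506) came down to -0.12 with GC correction. Pfkp, the platelet-type subunit, averaged 61.3 ± 11.3 CPM in Mark3-KO and 80.04 ± 2.599 CPM in WT, and with a transcript of 48.0% GC its log2 fold change was -0.39 without GC correction and -0.46 with it (edgeR adjusted p 0.0845 and 0.107). Hk1 and Hk2 encode the hexokinases, which trap glucose in the cell by phosphorylation. Hk1 averaged 58.98 ± 12.6 CPM in Mark3-KO and 86.5 ± 8.91 CPM in WT, and its log2 fold change turned from -0.55 to 0.34 with GC correction, where the groups stood apart in the opposite order (edgeR adjusted p 0.0588 and 0.153). Hk2 averaged 31.3 ± 3.92 CPM in Mark3-KO and 40.3 ± 3.44 CPM in WT, with a log2 fold change of -0.37 without GC correction and -0.08 with it. Aldoa and Aldoc encode aldolases, which split the sugar bisphosphate that phosphofructokinase itself makes. Tpi1 encodes the isomerase that brings both products into the same path. Aldoa averaged 293 ± 132 CPM in Mark3-KO and 714 ± 155 CPM in WT (log2 fold change -1.29, and -0.35 after GC correction). Aldoc, at a low level, averaged 0.944 ± 0.293 CPM in Mark3-KO and 1.78 ± 0.241 CPM in WT (-0.91 and -0.63). Tpi1 averaged 131 ± 69.3 CPM in Mark3-KO and 327 ± 70.7 CPM in WT (-1.32 and -0.87).

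Of the 8 genes of the steps from triose phosphates to lactate and Pdk1, 5 were lower in Mark3-KO without overlap (27.5% of all tested genes), or 3 after GC correction (17%), and 0 of the 9 passed edgeR's test after adjustment. Eno1, the main enolase, had 725, 494 and 409.8 CPM in the Mark3-KO libraries, against 1373, 1114 and 940.3 CPM in the WT libraries. Mark3-KO over WT came to -1.07 ± 0.24 on the log2 scale (SE, edgeR adjusted p 0.0506), and -0.05 after GC correction, with the groups then overlapping. Pkm, which encodes the pyruvate kinase of most tissues, had 886, 578 and 429.99 CPM in the Mark3-KO libraries, against 1806, 1363 and 1051 CPM in the WT libraries. It followed the same course, with a log2 fold change of -1.16 (SE 0.31, edgeR adjusted p 0.0506) and -0.10 after GC correction. Eno1 and Pkm have transcripts of 57.4% and 57.7% GC, the highest among the 37 genes. Ldha encodes the main lactate dehydrogenase subunit of glycolytic cells, and had 837, 660.3 and 583 CPM in the Mark3-KO libraries, against 1176, 1044 and 931 CPM in the WT libraries. On the log2 scale the difference was -0.60 ± 0.16 (SE, edgeR adjusted p 0.0509), and -0.36 after GC correction (adjusted p 0.0972), where the groups still did not overlap. Ldhb, the other subunit, averaged 13.7 ± 3.64 CPM in Mark3-KO and 22.2 ± 1.75 CPM in WT (log2 fold change -0.70, and -0.29 after GC correction). Pgk1, the phosphoglycerate kinase that yields the first ATP of the pathway, had 592, 542 and 506 CPM in the Mark3-KO libraries, against 533, 489 and 569.9 CPM in the WT libraries. The groups overlapped, with a log2 ratio of 0.04 ± 0.10 (SE, edgeR adjusted p 0.769), and 0.12 after GC correction. Pgam1, the next enzyme, averaged 250.2 ± 10.3 CPM in Mark3-KO and 294 ± 18.8 CPM in WT, with a log2 fold change of -0.23 that turned to 0.18 with GC correction. Eno2, the neuron-type enolase, averaged 8.197 ± 1.86 CPM in Mark3-KO and 11.7 ± 2.49 CPM in WT and likewise turned from -0.51 to 0.19. Pdk1, a kinase that inhibits pyruvate dehydrogenase, averaged 52.03 ± 3.55 CPM in Mark3-KO and 50.8 ± 4.596 CPM in WT. Its log2 fold change was 0.03 without GC correction and -0.17 with it.

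Gapdh, the dehydrogenase often used as a loading control, has many near-identical pseudogene copies, to which counts were also assigned. The gene itself had 91.2, 61.996 and 47.9 CPM in the Mark3-KO libraries, against 163, 154 and 60.9 CPM in the WT libraries. WT replicate 3 lay within the Mark3-KO range, so the groups overlapped. Among 11672 annotated pseudogenes in the table, 98 matched Gapdh transcripts over at least 300 bases with at least 95% identity, and 97 of these held counts. Together they measured 301, 179 and 135 CPM in the Mark3-KO libraries, against 581, 461 and 366 CPM in the WT libraries. They took 75.3% of the sum of gene and copies in Mark3-KO and 78.8% in WT. The sum was 392, 241 and 182 CPM in the Mark3-KO libraries and 744, 615 and 427 CPM in the WT libraries, and no longer overlapped. The sum gave a log2 fold change of -1.13 ± 0.32 (SE, edgeR adjusted p 0.0526), against -0.91 (SE 0.41, edgeR adjusted p 0.127) for the gene alone, which came to -0.53 after GC correction. How reads that match several copies were counted is not given in the sources used here. Copies were found for 11 of the 37 genes. After Gapdh, the copies took over 5% of the sum for Ak4 (20.7% in Mark3-KO and 6.75% in WT), Pgam1 (7.39% in Mark3-KO and 13.9% in WT), Eno1 (6.01% in Mark3-KO and 9.14% in WT) and Pgk1 (5.40% in Mark3-KO and 5.56% in WT). With its copies added, the log2 fold change of Pgam1 was -0.34 and that of Eno1 -1.12, and neither passed. Exons of 15 of the 37 genes overlap another gene. The largest shares of a gene's own exon bases were 22.7% for Ankrd37 with Lrp2bp, 22.3% for Bnip3 with Gm45507, 17.4% for Pfkfb2 with Gm29427 and 15.3% for Pkm with Gm49759. The library kit does not mark strand, so reads from overlapping genes of opposite strands cannot be told apart.

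**Figure D3:**
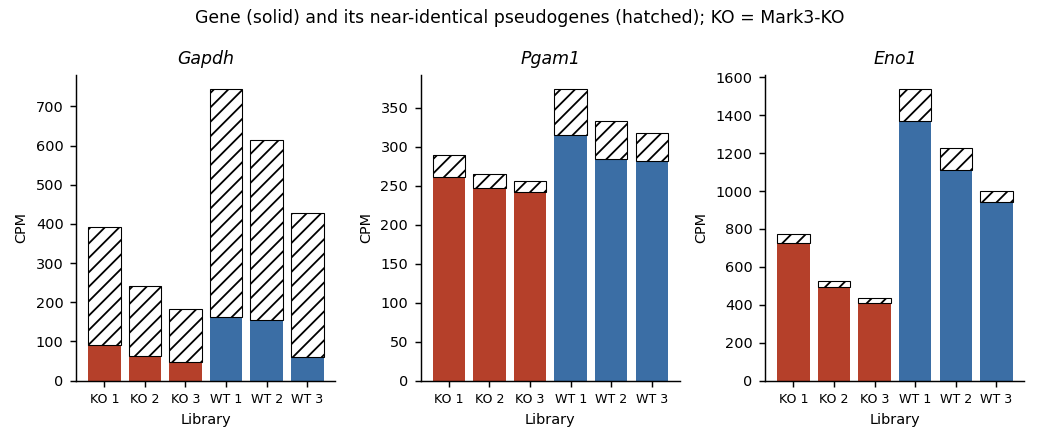
Level in CPM (stacked bars from 0) of Gapdh, Pgam1 and Eno1 (solid) and of the pseudogenes that match them (hatched) in each Mark3-KO (KO, left) and WT library (right). The copies exceed the gene itself for Gapdh, and WT replicate 3 is the lowest WT library for Gapdh alone and for the sum, where it stays above Mark3-KO replicate 1.

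The makeup of each isozyme family was compared as the share of counts per exonic base, which does not depend on library scaling. With 3 libraries against 3, the exact two-sided permutation test cannot go below 0.1, so no share could pass 0.05. That smallest value was reached by 9 of the 12 shares computed (0.133 after adjustment over the 12). It is reached where the groups do not overlap, and the CPM of 53.3% of all tested genes did not overlap either. The shares of Pfkl, Pfkm and Pfkp are among the 9 and are parts of the same whole, so they are not independent. Of the phosphofructokinase subunits, Pfkl made up 37.3, 31.5 and 26.9% in the Mark3-KO libraries, against 57.3, 50.8 and 42.2% in the WT libraries. On uncorrected counts per exonic base Pfkl was the leading subunit in each WT library and Pfkm in each Mark3-KO library. This order depends on the annotated exon lengths (6675 bases for Pfkl, 3340 for Pfkm and 13401 for Pfkp). In CPM, without that division, Pfkp was highest in each Mark3-KO library and in WT replicate 3, and Pfkm was lowest in every library. With GC correction the mean difference of Pfkl came down from -18.2 to -8.49 percentage points, and Pfkl led Pfkm in Mark3-KO replicate 1 as well. The share of Pfkm was 37.9, 43.03 and 40.6% in the Mark3-KO libraries, against 30.1, 32.5 and 35.4% in the WT libraries. Within its own family, Pfkfb3 made up 31.7, 30.9 and 23.8% in the Mark3-KO libraries, against 45.8, 45.7 and 44.5% in the WT libraries. It led in each WT library, and its lower share in Mark3-KO was nearly as large after GC correction (a difference of -15.9 percentage points, against -16.5 without). Of the pair of lactate carriers, Slc16a3 made up 7.71, 5.83 and 4.77% in the Mark3-KO libraries, against 28.8, 19.4 and 9.49% in the WT libraries. Its mean difference came down from -13.1 to -2.88 percentage points with GC correction. The share of Hk1 in the hexokinases averaged 56.6 ± 3.598% in Mark3-KO and 59.97 ± 0.586% in WT, and its difference turned from -3.37 to 7.26 percentage points with GC correction. Slc2a1, Aldoa, Eno1, Ldha and Hif1a made up 88.2% or more of their families on average in each group. Pfkp and Egln1 completed the 12 shares, at 27.6 ± 4.28% in Mark3-KO against 17.3 ± 4.92% in WT, and 77.2 ± 1.43% against 80.9 ± 2.98%. Both differences turned with GC correction, that of Pfkp from 10.3 to -0.24 percentage points and that of Egln1 from -3.62 to 3.59. On the same scale, CPM per kilobase of exon, the most abundant members in WT were Ldha (317), Pkm (281), Aldoa (245), Pgk1 (237) and Eno1 (212). In Mark3-KO they were Pgk1 (244), Ldha (210), Pkm (126.3), Pgam1 (126.2) and Eno1 (101). The 17 glycolytic enzyme genes summed to 4540, 3364 and 2781 CPM in the Mark3-KO libraries and 7503, 6184 and 5287 CPM in the WT libraries. This ranking and this sum are without GC correction. In both, Gapdh was counted without its pseudogene copies, which held most of the counts of gene and copies together, so its rank here is understated.

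The 5 genes of the oxygen-sensing system differed among themselves in direction without GC correction, and all 5 were above 0 with it. Of the 5, 0 passed edgeR's test. Hif1a, the alpha subunit of HIF that is present in most cells, had 397, 461 and 534 CPM in the Mark3-KO libraries, against 267, 312 and 379.7 CPM in the WT libraries. Each Mark3-KO library was above each WT library, with WT replicate 3 and Mark3-KO replicate 1 close together. This gave a log2 fold change of 0.54 ± 0.17 (SE, edgeR adjusted p 0.058), and 0.06 after GC correction, where the groups overlapped. Its transcript has the lowest GC content of the 37, at 41.3%. Epas1, which encodes the alpha subunit HIF-2alpha, had 7.102, 6.505 and 7.72 CPM in the Mark3-KO libraries, against 10.96, 8.45 and 7.83 CPM in the WT libraries. All Mark3-KO values lay below the lowest WT value, the nearest by a narrow margin, and log2 of the ratio was -0.35 ± 0.17 (SE, edgeR adjusted p 0.158), and 0.03 after GC correction. Egln1, the main oxygen-sensing hydroxylase of HIF, had 53.98, 50.7 and 54.9 CPM in the Mark3-KO libraries, against 66.2, 60.7 and 52.7 CPM in the WT libraries. The groups overlapped, with a log2 fold change of -0.17 (SE 0.11, edgeR adjusted p 0.277). Its transcript is rich in GC at 56.0%, and after GC correction the sign turned to 0.72 (SE 0.16, adjusted p 0.0941) with no overlap between the groups. Egln3, a hydroxylase that hypoxia itself induces, averaged 11.6 ± 0.658 CPM in Mark3-KO and 10.4 ± 0.962 CPM in WT. Vhl, the subunit that marks hydroxylated HIF for degradation, averaged 37.9 ± 3.101 CPM in Mark3-KO and 33.9 ± 2.598 CPM in WT. Neither passed edgeR's test, with log2 fold changes of 0.16 and 0.16, and 0.39 and 0.26 after GC correction. These are transcript levels, and HIF is regulated mainly at the level of its protein, which was not measured.

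Of the 7 other hypoxia-induced genes, Ak4 was the one that passed edgeR's test. Bnip3, which directs damaged mitochondria to autophagy, had 78.5, 84.4 and 97.9 CPM in the Mark3-KO libraries, against 59.8, 62.5 and 76.96 CPM in the WT libraries. The groups did not overlap, with the lowest Mark3-KO library just above WT replicate 3. The fold change, as log2, amounted to 0.39 ± 0.14 (SE, edgeR adjusted p 0.077), and -0.08 after GC correction. Adm, the vasoactive peptide adrenomedullin, had 27.3, 20.5 and 18.6 CPM in the Mark3-KO libraries, against 41.7, 33.7 and 30.4 CPM in the WT libraries. Expressed as log2, the ratio was -0.67 ± 0.19 (SE, edgeR adjusted p 0.0525), and -0.51 after GC correction (adjusted p 0.101), without overlap in either case. Car9, a carbonic anhydrase of the cell surface, had 6.397, 4.39 and 4.599 CPM in the Mark3-KO libraries, against 8.02, 8.54 and 7.47 CPM in the WT libraries. The log2 fold change of -0.64 (SE 0.19, edgeR adjusted p 0.0533) came to -0.09 after GC correction. Vegfa, the vessel growth factor that osteoblasts secrete, averaged 32.9 ± 8.59 CPM in Mark3-KO and 50.9 ± 2.63 CPM in WT (log2 fold change -0.63, edgeR adjusted p 0.0616, and -0.46 after GC correction). Ndrg1, a gene that many stresses induce, had 19.8, 51.1 and 41.2 CPM in the Mark3-KO libraries, against 56.9, 55.3 and 56.7 CPM in the WT libraries. Mark3-KO replicate 1 was far below every other library, and the log2 fold change was -0.59 with all libraries (edgeR adjusted p 0.191) and -0.29 without that library (adjusted p 0.134), and -0.43 after GC correction with all libraries. Ankrd37, an ankyrin repeat gene, was at 1.01 ± 0.182 CPM in Mark3-KO and 1.23 ± 0.213 CPM in WT, with overlap and a log2 fold change of -0.28, and -0.08 after GC correction.

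**Figure D4:**
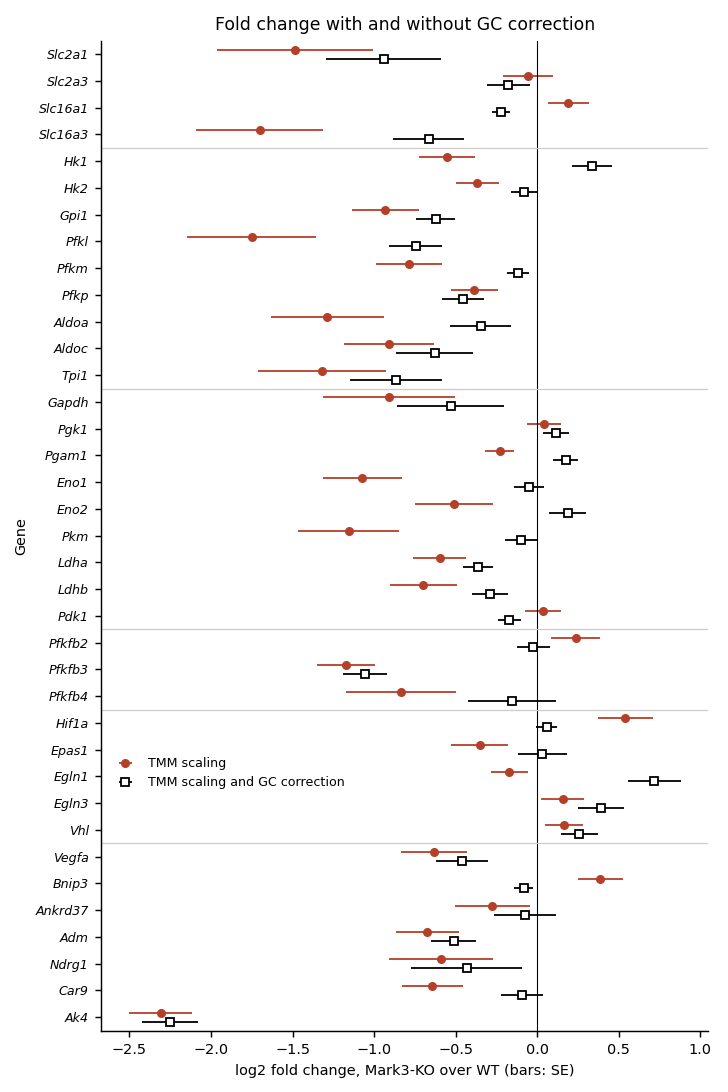
Log2 fold change of Mark3-KO over WT (horizontal axis, bars are SE) for the 37 genes by role, with TMM scaling (filled circles) and with GC correction added (open squares). Ak4 and Pfkfb3 hardly move, Eno1, Pkm and Pfkm come close to 0, and Hk1 and Egln1 cross to the positive side.

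Fold change followed the GC content of the transcript within the list as it did over all genes. Across the 37 genes Pearson's r between GC content and log2 fold change was -0.64 (Spearman's rho -0.63), and across 18965 tested genes with a GC value it was -0.72 (rho -0.79). Genes of one library share its depth and composition, so these describe the libraries and carry no p-value. Ranked by GC content, the 12 genes richest in it (53.9 to 57.7% GC) had a median log2 fold change of -0.95, against -0.77 over all 2920 tested genes in that range. In the 12 genes of middle GC content (50.9 to 53.5%) the medians were -0.61 against -0.30 over 2475 genes. In the 13 genes poorest in GC (41.3 to 50.7%) they were 0.03 against 0.23 over 9074 genes. The members' median was thus below that of all tested genes in each range, but GC content was not matched within a range. In narrow bins the median of all tested genes ran from 0.50 at 41.5% GC to -0.08 at 50.3%. It ran from -0.54 at 54.2% to -0.94 at 56.5%. The part of GC content in these differences was not tested. With GC correction the median of the 37 was -0.17, against 0.03 over all tested genes. Then 28 of the 37 were below 0, against 8810 of the 19017 tested genes. While 29 of the 37 came closer to 0, the matching number over all tested genes is not given. The sign changed for 9 of the 37, against 6094 of the 19017 tested genes. The 9 were Hk1, Pgam1, Eno2, Egln1 and Epas1, which turned positive, and Pfkfb2, Slc16a1, Pdk1 and Bnip3, which turned negative. The corrected values of the groups did not overlap for 17 genes that were lower and 2 that were higher in Mark3-KO, against 17% and 16.1% of all tested genes. At an unadjusted p below 0.05 in the corrected edgeR test there were 18 of the 37, against 26.3%, and at an adjusted p below 0.1 there were 7, 6 lower and 1 higher, against 8.63% (5.5% lower and 3.14% higher).

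**Figure D5:**
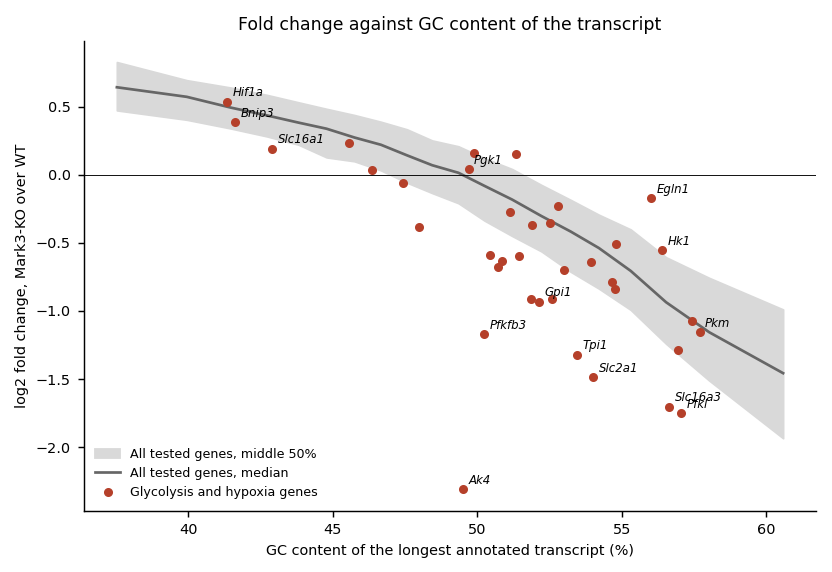
Log2 fold change of Mark3-KO over WT (vertical axis) against GC content of the longest annotated transcript (horizontal axis, %). Points are the 37 genes, the line is the median of all tested genes in 20 bins of GC content, and the band holds their middle 50%. Hif1a, Bnip3 and Pkm lie within the band and Egln1 above it, while Ak4, at -2.31, and Pfkfb3, at -1.17, are far below it. Slc2a1, Slc16a3, Pfkl, Tpi1 and Gpi1 are among the other genes below it.

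Related genes outside the 37 were read from a pair of lists. Of 37 other genes of the HIF pathway or induced by hypoxia, 35 were tested and 0 passed edgeR's test, with 18 at an unadjusted p below 0.05 (11 lower and 7 higher in Mark3-KO) and 16 called by DESeq2. These shares were 51.4% and 45.7% of the 35, against 45.7% and 36.2% of all tested genes. By direction, 31.4% were lower and 20% higher at that unadjusted p, against 24.8% and 20.8%. With GC correction 22.9% were lower and 14.3% higher at an unadjusted p below 0.05 in edgeR, against 13.8% and 12.5%. The corrected groups did not overlap for 37.1% that were lower and 17.1% that were higher, against 17% and 16.1%. Adjusted p in that corrected test was below 0.1 for 5.71% lower and 2.86% higher, against 5.5% and 3.14%. The median log2 fold change of the 35 was -0.02, and -0.07 after GC correction. The 4 with the smallest p were of both directions. Lox, which cross-links collagen, averaged 1866 ± 248 CPM in Mark3-KO and 1104 ± 81.2 CPM in WT (log2 fold change 0.76, edgeR adjusted p 0.0506, and 0.38 after GC correction). P4ha2, a collagen prolyl hydroxylase subunit, averaged 61.8 ± 13.2 CPM in Mark3-KO and 114 ± 15.3 CPM in WT (-0.88, adjusted p 0.0506, and -0.57). Hmox1, a haem-degrading enzyme, was at -0.87, and -0.40 after GC correction. Ddit4, an inhibitor of mTOR signalling, was at -0.79 and turned to 0.35. Of 52 other genes of glucose metabolism, 48 were tested and 0 passed edgeR's test, with 25 at an unadjusted p below 0.05 (17 lower and 8 higher in Mark3-KO) and 20 called by DESeq2. The shares of the 48 were 52.1% and 41.7%, against 45.7% and 36.2% of all tested genes. By direction, 35.4% were lower and 16.7% higher at that unadjusted p, against 24.8% and 20.8%. In the GC-corrected edgeR test 29.2% were lower and 12.5% higher at an unadjusted p below 0.05, against 13.8% and 12.5%. At an adjusted p below 0.1 there were then 8 of the 48, all lower (16.7%), against 5.5% lower and 3.14% higher. The median log2 fold change of the 48 was -0.05, and -0.09 after GC correction. The 4 with the smallest p were each lower in Mark3-KO. They were G6pc3, a glucose phosphate phosphatase (-1.49, and -0.41 after GC correction), and Pcx, the carboxylase that feeds pyruvate into the citric acid cycle (-1.73 and -0.65). Taldo1, of the pentose phosphate pathway, was at -1.57 and -1.06, and the sugar transporter gene Slc2a8 at -2.66 and -1.32. The adjusted p in edgeR's test was 0.0506 for each of the 4 without GC correction, and between 0.0941 and 0.0990 with it.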

How the data were processed

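RNA of 6 osteoblast samples was taken up in Trizol and made into libraries with the TruSeq RNA kit v2, per the labels' protocols. The authors deposited raw counts, 1 whole number for each gene and library. Tools named in the submitters' processing notes are HISAT2 2.0.5, StringTie, FastQC and DESeq2, with the build GRCm38. Their settings, and the counting of shared reads, are not given in the sources used here. Whether replicates are separate cultures or litters is not in the labels, and p-values reflect only the spread among these libraries, which may be technical. No library was a copy of another (chi-square per degree of freedom at least 68.2 for any pair).

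Of 51912 IDs, 51719 matched GENCODE M21. Genes were kept with filterByExpr (19017), scaled with TMM and tested with edgeR 4.0.16 (R 4.3.3), Mark3-KO over WT, with Benjamini-Hochberg adjustment over all of them and a threshold of 0.05. SE was taken as the fold change (log2) divided by the root of the F statistic. The GC correction entered a per-library natural spline with 6 degrees of freedom, fitted to log2 ratios (prior count 2) against GC content of the longest transcript, as an offset. Alternatives were other scalings and filters, DESeq2 1.42.0, limma-voom (limma 3.58.1), a replicate block, and libraries left out. Near-identical pseudogenes, found with blastn, were an alternative added after seeing the data. The tests were also run on simulated counts, drawn independently for each gene with the same dispersion for all genes. The real libraries vary more unevenly, so that run cannot vouch for the tests on these data. The members and lists were chosen with earlier results of these data known. Every member is reported, with library values for the 3 of smallest p in each role and for those higher at an unadjusted p below 0.05, and beyond this rule for Pgk1, Gapdh and Ndrg1.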

Additional observations from a re-analysis of the deposited data

How the results depend on the processing

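The count of genes that passed among all tested genes was 41, and 1 among the 37. With all libraries it moved to 4533 and 10 with scaling by library size alone, 5266 and 17 with a filter of 1 CPM in 3 libraries, 6875 and 19 with the DESeq2 Wald test, and 8317 and 23 with an adjusted p below 0.1. It was 72 and 2 with GC correction, and 27 and 1 with limma-voom. Leaving out each library in turn gave 0 to 6460 genes and 0 to 22 of the 37. It gave 0 of the 37 without WT replicate 2, Mark3-KO replicate 2 or Mark3-KO replicate 3 (20, 20 and 18 at an unadjusted p below 0.05 in edgeR). There were 22 without Mark3-KO replicate 1 and 16 without WT replicate 3. With all libraries, 24 of the 37 and 45.7% of all tested genes had an unadjusted p below 0.05 in edgeR. The share of all tested genes is not given for each left-out library, so these counts are not read as particular to the members. Without both WT replicate 1 and Mark3-KO replicate 3, chosen after seeing the data, 0 genes and 0 members passed, with 3258 and 12 at an unadjusted p below 0.05. The members' median log2 fold change of -0.60 moved to -0.17 with GC correction, to -0.18 with the replicate block and GC correction together, and to -0.40 without both of those libraries, while leaving out each library gave -0.76 to -0.49. Scaling by library size alone moved the median of all genes from 0.02 to 0.13.

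The replicate number as a block gave 8487 genes and 25 members, and with GC correction 1592 and 7. The deviations of same-numbered libraries from their group means correlated at 0.33, -0.03 and 0.29 for numbers 1 to 3. One pair was not positive, and not every library correlated best with its own number, so the libraries are taken to share a number and not a pairing.

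Signs turned in these cases. With GC correction, and with the replicate block added to it, the log2 fold changes were 0.34 and 0.35 for Hk1, -0.024 and -0.020 for Pfkfb2, 0.18 and 0.17 for Pgam1, 0.19 and 0.19 for Eno2, -0.22 and -0.22 for Slc16a1, -0.17 and -0.17 for Pdk1, 0.032 and 0.025 for Epas1, 0.72 and 0.70 for Egln1, and -0.084 and -0.083 for Bnip3. Genes near 0 turned when libraries were left out: Slc2a3 ran from -0.142 to 0.011, Pgk1 from -0.0215 to 0.0905 and Pdk1 from -0.027 to 0.0997. Without WT replicate 1 and Mark3-KO replicate 3, Slc2a3 was at 0.075 and Pdk1 at -0.064, while Pgk1, at 0.0978, kept its sign, and with library size alone Slc2a3 was at 0.058. The GC-corrected share differences were 7.26 percentage points for Hk1, -0.24 for Pfkp, 0.0385 for Aldoa, -0.18 for Ldha and 3.59 for Egln1, opposite to the uncorrected ones. The cause was not tested. DESeq2 size factors, limma-voom, no filter on low counts and adding near-identical pseudogenes left each of the 37 genes on its side of the threshold with its sign. Slc2a1 moved from -1.48 to -0.86 without WT replicate 1 and Mark3-KO replicate 3. Depth limits Aldoc and Ankrd37 most, which averaged near 1 CPM.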
